A study of Mus musculus with 3 samples.

Results

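The translation initiation and elongation factors were examined in Colon26, a murine colon adenocarcinoma line, and in LuM1 and NM11, its high-metastatic and low-metastatic sublines. These are BALB/c lines from a female mouse, and the labels name no treatment or altered gene in any of them. Members were taken by name: genes with a symbol that begins with Eif or Eef and a digit, without the Eif2ak kinases, together with *Abce1*, *Abcf1*, *Abcf2* and *Abcf3*. The array named 70 such genes through 112 probes, out of 22911 named genes and 56605 probes in all. The gene table held 16 further symbols of this kind that no probe read, and 15 of them were pseudogenes or non-coding. Each line was cultured for 3 days in RPMI1640 medium with serum and measured on 1 single-colour array. All were on 1 slide, scanned together.

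Initiation factors bring the initiator tRNA, the small ribosomal subunit and the mRNA cap together and choose the start codon, and elongation factors then deliver aminoacyl-tRNAs and move the ribosome along the message. The supply of active eIF2 and of free eIF4E are the classical control points, governed by stress kinases and by mTOR. Many of these mRNAs are abundant in any growing cell, and several elongation factor mRNAs carry the terminal oligopyrimidine (TOP) tract that ties their translation to mTOR.

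A level is given as the scaled signal, the background-corrected brightness of a probe after each array was brought to a common 75th percentile. The error after ± is the scanner software's and is technical only. With 1 array per line no difference has a replicate check and no test was possible, so precision is limited by the number of arrays. Probes well above background made up 49.9% to 53.8% of each array, and none was saturated. Of the 70 genes, 65 were well above background in Colon26 cells, 66 in LuM1 cells and 65 in NM11 cells. *Eef1a2*, the muscle and neuron form of eEF1A, *Eif4e1b*, an oocyte paralogue of eIF4E, *Eif2s3y*, the Y-linked gene of the eIF2 gamma subunit, and *Eef1akmt3* were so in no line. As for the epithelial label, 2 to 3 of 8 epithelial markers were well above background, *Krt8* and *Cdx2* in every line and *Epcam* in LuM1 cells alone, whereas *Vim*, *Col1a1* and *Col1a2* were so in every line. The summed signal of the epithelial list was 512 in Colon26, 397 in LuM1 and 235 in NM11 cells, that of the mesenchymal list was 166952, 82361 and 189691, and that of 4 leukocyte markers was 822, 5817 and 879. *Ptprc*, the pan-leukocyte marker, was well above background in no line. The part of these differences in the results was not tested.

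The mRNA levels of most translation factors were lower in LuM1 cells than in Colon26 cells. Of 66 genes with a ratio, 13 were at least 2-fold lower (19.7%, against 11.8% of all genes with a ratio) and 1, *Eif4e3*, was at least 2-fold higher (against 13.1% of all genes). Among the 65 genes measured in both lines, log2 ratios of LuM1 over Colon26 had a median of -0.49, and their quartiles were -0.88 and -0.31. The median over all 12397 measured genes was -0.13, and 56 of the 65 translation factors lay below it (86.2%; by construction as many of all genes lie above it as below). The difference exceeded the scanner error downward in 55 genes (84.6%, against 44.6% of all measured genes), upward in 0 genes (against 30.3%), and lay within it in 10. The measured ratios ran from -1.71 to 0.16, so most genes differed in 1 direction and by moderate amounts. Nearest to the 2-fold threshold were *Eif4e* and *Eef2k* at -1.02 inside it and *Eif2s2*, with a difference of 1.996-fold, and *Eef1g*, with 1.97-fold, outside it. The 13 genes lay on 8 chromosomes. In RNA of whole cultures, a lower level in every cell and fewer cells that carry the message cannot be told apart.

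**Figure D1:**
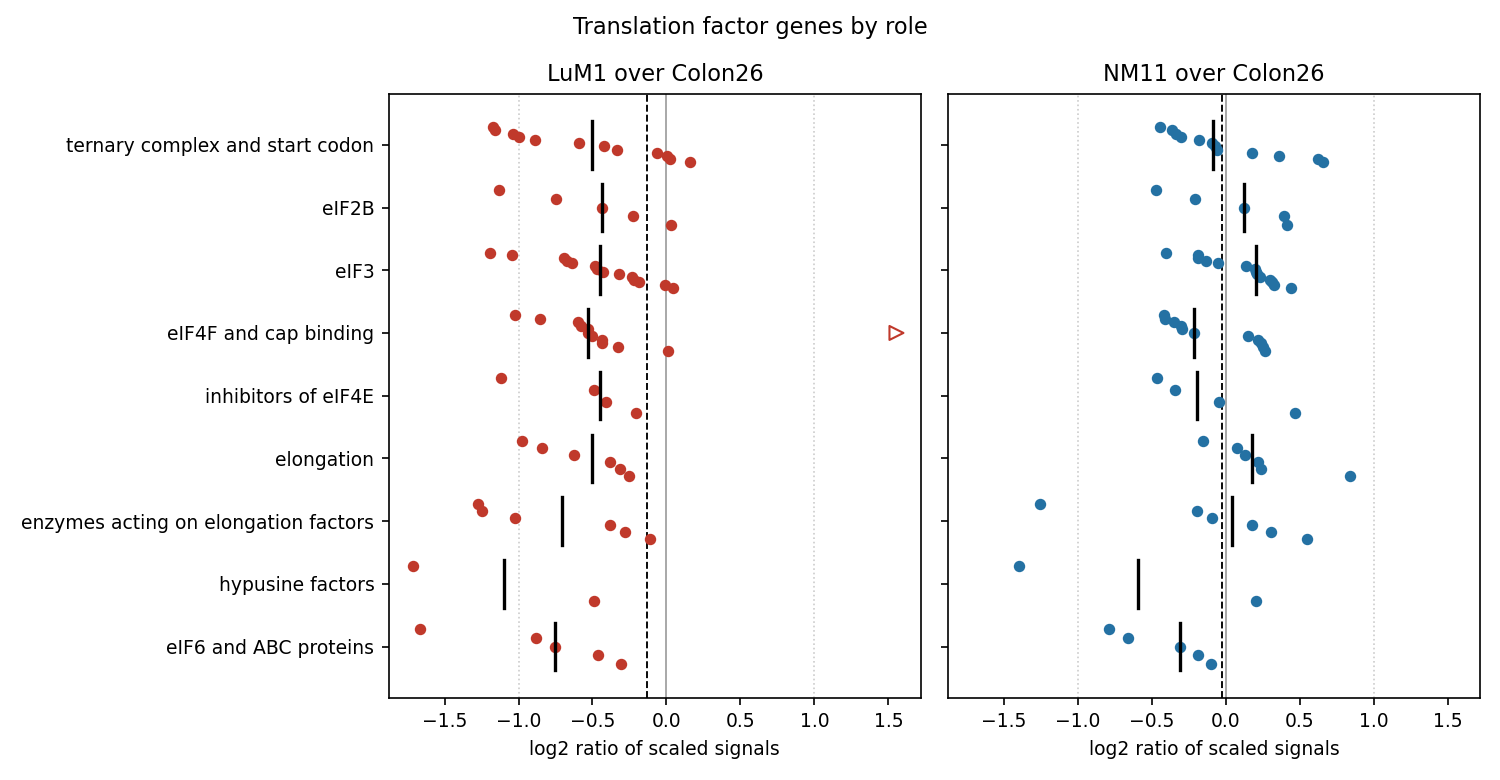
Log2 ratios of scaled signals for each translation factor, grouped by role, in LuM1 over Colon26 (left) and NM11 over Colon26 (right), from 1 array per line. Filled points are measured genes, the open triangle is a lower bound (*Eif4e3*), black bars are group medians and the dashed line is the median of all measured genes (-0.13 on the left, -0.02 on the right); every group median lies left of the dashed line in LuM1 cells, while the groups fall on both sides of it in NM11 cells.

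The ratios of LuM1 over Colon26 also moved with signal strength across the whole array. Split into 4 groups of equal size by mean signal, all measured genes had median log2 ratios of 0.03, -0.03, -0.18 and -0.30 from the dimmest to the brightest group. Of the 65 measured translation factors, 44 lay in the brightest group. There their median was -0.52, and 35 of the 44 lay below that group's median. Relative to a running median over 500 genes of like signal, a reference chosen after seeing the data, the median of the 65 genes was -0.26. On that scale 52 genes lay below and 13 above. At least 2-fold below lay 5 of the 65, a share near the 7.58% of all genes. The size of the shift therefore depended on this reference, and so did the excess of genes past 2-fold. The direction of the shift was the same on both.

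**Figure D2:**
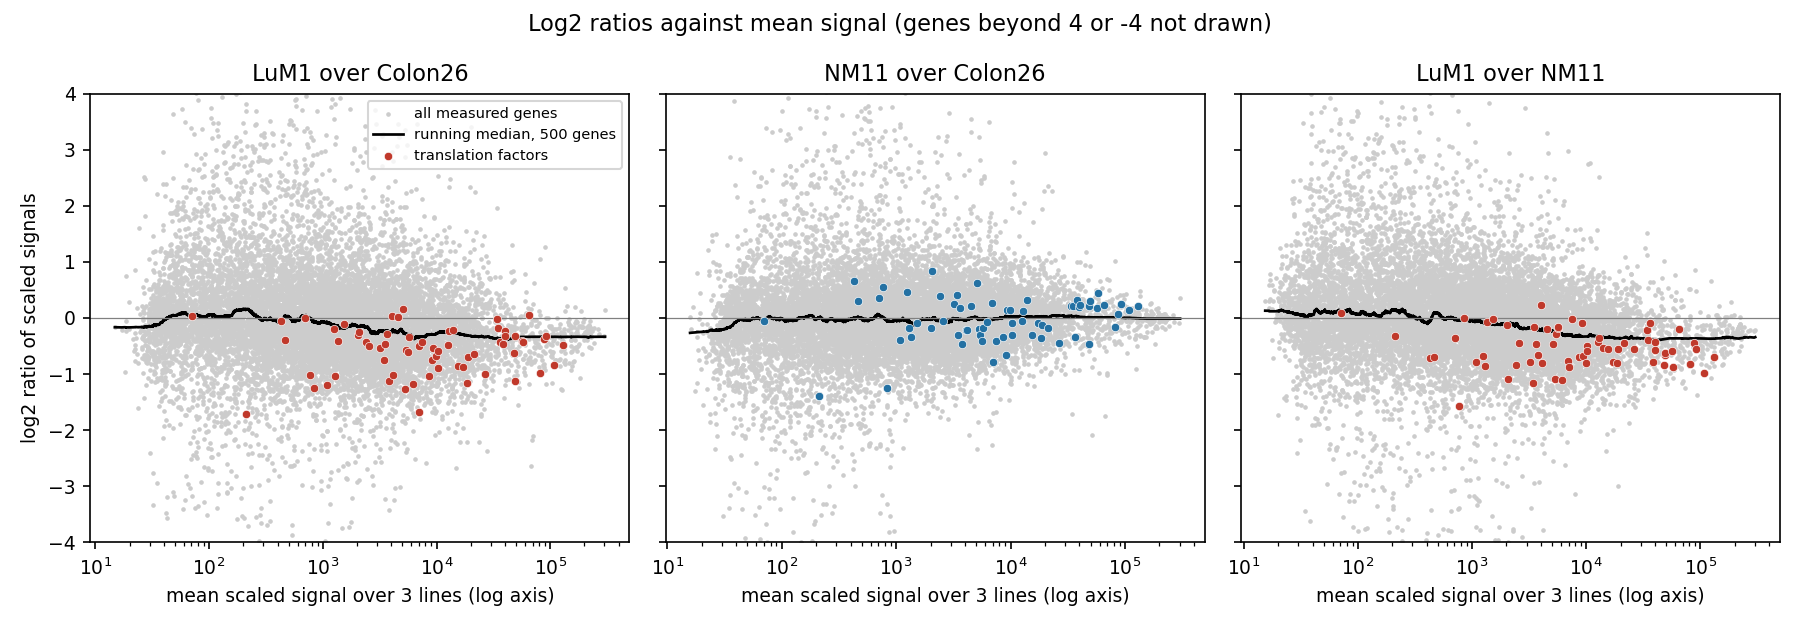
Log2 ratio against mean scaled signal over the 3 lines (log axis) for all measured genes (grey) and the translation factors (coloured) in each of the 3 comparisons, with the running median of 500 genes in black. The black line falls toward bright genes in both comparisons that contain LuM1 and stays near 0 in NM11 over Colon26; the translation factors lie mostly on the bright side and mostly below the line where LuM1 is compared.

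Genes of the ternary complex and start codon selection had a median log2 ratio of -0.50 over 12 measured genes, with 3 at least 2-fold lower (against 11.8% of all genes). *Eif1a*, which encodes a scanning factor, had signals of 8238 ± 824 in Colon26, 3656 ± 366 in LuM1 and 7823 ± 782 in NM11 cells. Its level in LuM1 cells was 2.25-fold lower than in Colon26 cells and 2.14-fold lower than in NM11 cells, whereas Colon26 and NM11 lay within the scanner error of each other. *Eif1ax*, the X-linked gene of the same factor, read 26272 ± 2627, 11750 ± 1175 and 20449 ± 2045 in Colon26, LuM1 and NM11 cells, 2.24-fold lower in LuM1 than in Colon26. Because these genes are close in sequence, a part of either signal may belong to the other. *Eif2s1*, the eIF2 alpha subunit that the stress kinases phosphorylate, read 11834 ± 1183 in Colon26, 5774 ± 577 in LuM1 and 9401 ± 940 in NM11 cells, a log2 ratio of LuM1 over Colon26 of -1.04. The beta subunit gene *Eif2s2* read 36970 ± 3697, 18526 ± 1853 and 27139 ± 2714, just short of 2-fold in LuM1 over Colon26. The gamma subunit gene *Eif2s3x* differed from both: it read 371 ± 37.5, 356 ± 35.8 and 586 ± 58.7 in Colon26, LuM1 and NM11 cells, so that Colon26 and LuM1 lay within the scanner error (log2 ratio -0.06) and NM11 was higher (0.66). The subunit genes of eIF2 thus did not share 1 pattern over the 3 lines.

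The exchange factor eIF2B reloads eIF2 with GTP. Its 5 genes had a median log2 ratio of LuM1 over Colon26 of -0.44 (0.01 in the processed values of the series) and spanned -1.13 to 0.03. *Eif2b5*, the catalytic epsilon subunit, read 5476 ± 548 in Colon26, 2502 ± 250 in LuM1 and 3954 ± 395 in NM11 cells and was 2.19-fold below the Colon26 level in LuM1 cells. *Eif2b3*, the gamma subunit, was highest in NM11 cells, with 3709 ± 371 in Colon26, 2215 ± 222 in LuM1 and 4942 ± 494 in NM11 cells. It was 2.23-fold lower in LuM1 than in NM11 cells. *Eif2b4* was the exception, with a log2 ratio of LuM1 over Colon26 of 0.03.

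The scaffold eIF3, which holds the small subunit and the mRNA, is encoded by 14 of the genes, all measured in every line. Their median in LuM1 over Colon26 was -0.45, and 13 of 14 genes lay below 0. With quantile normalization that median was -0.058, or -0.0038 relative to all genes in place of -0.32, and in the processed values of the series it was -0.0018, so the lower level of eIF3 as a group depended on the scaling. Against NM11 all 14 lay below 0, with a median of -0.55 that turned to 0.04 when the arrays were scaled to *Hprt*. The exception against Colon26 was *Eif3h* at 0.04. The loosely bound j subunit had the largest differences: *Eif3j1* read 1571 ± 157 in Colon26, 687 ± 68.8 in LuM1 and 1190 ± 119 in NM11 cells, 2.29-fold lower in LuM1 than in Colon26, and its copy *Eif3j2* read 1704 ± 171, 828 ± 82.9 and 1500 ± 150. Since these copies are nearly identical, they may be 1 signal read by both probes. The *Eif3j2* spot also lay in an area of the LuM1 array where 14.8% of the surrounding spots were well above background on that array alone, against 3.49% over the whole array, and it gave no ratio of LuM1 over Colon26 once such areas were left out. *Eif3a*, the largest core subunit, read 11219 ± 1122, 7040 ± 704 and 12350 ± 1235 in Colon26, LuM1 and NM11 cells, a log2 ratio of LuM1 over Colon26 of -0.67. With *Eif3h*, *Eif3k* (-0.01), *Eif3f* (-0.18) and *Eif3e* (-0.22) were nearest to Colon26, so the subunits of 1 complex differed by over 1 log2 unit in this ratio.

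The group of eIF4F and cap-binding genes, which also holds paralogues such as *Eif4e2* and *Eif4a3*, had a median of -0.53 over 11 measured genes. *Eif4e*, the cap-binding protein, read 5495 ± 550 in Colon26, 2708 ± 271 in LuM1 and 4736 ± 474 in NM11 cells. It was 2.03-fold below the Colon26 level in LuM1 cells. NM11 was also lower than Colon26, by slightly more than the scanner error (log2 ratio -0.21, error 0.20). Its spot on the LuM1 array lay in an area of the same kind (13.2% against 3.49%), so its ratios of LuM1 rest on spots that are lost without such areas. The scaffold gene *Eif4g1* read 20304 ± 2030, 11218 ± 1122 and 16479 ± 1648, a ratio of LuM1 over Colon26 of -0.86. The helicase genes differed less, *Eif4a1* with 41202 ± 4120 in Colon26, 32802 ± 3280 in LuM1 and 48577 ± 4858 in NM11 cells (log2 ratio of LuM1 over Colon26 -0.33), and *Eif4a2* with 7126 ± 713, 4707 ± 471 and 5356 ± 536 (-0.60). *Eif4g3*, another scaffold gene, was at 0.01. *Eif4e3*, a cap-binding paralogue, was the gene that went the other way. It was well above background in LuM1 cells alone, with a signal of 77.6 ± 9.13, against 6.01 in Colon26 and 4.38 in NM11 cells, which were not well above background. Against the lowest signal well above background on each array, 26.4 in Colon26 and 19.6 in NM11, the LuM1 level was at least 2.94-fold that of Colon26 and at least 3.96-fold that of NM11. With the normexp background correction the log2 bounds were 0.78 and 0.83, so this call was lost there.

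The 4 genes of eIF4E inhibitors had a median of -0.45 in LuM1 over Colon26. *Eif4ebp1*, which sequesters eIF4E unless mTOR phosphorylates it, read 70548 ± 7055 in Colon26, 32462 ± 3246 in LuM1 and 51224 ± 5122 in NM11 cells and was 2.17-fold below the Colon26 level in LuM1 cells. *Eif4ebp2* read 2898 ± 290, 2062 ± 206 and 2805 ± 281, a ratio of LuM1 over Colon26 of -0.49. Thus the gene of the cap-binding protein and the gene of its main inhibitor were both about 1 log2 unit lower.

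The elongation group had median log2 ratios of -0.50 in LuM1 over Colon26 and -0.83 in LuM1 over NM11, over 6 measured genes. It also holds *Eef1e1*, which is named with the elongation factors but belongs to another complex. All 6 genes lay below 0 in both comparisons at the reported scaling. Under the alternatives both medians stayed below 0 (up to -0.06 and -0.24), but single genes did not. *Eef1a1* reached 0.07 against Colon26 and 0.14 against NM11, and *Eef1e1* reached 0.20 against Colon26. *Eef2*, the translocase, read 126743 ± 12674 in Colon26, 70587 ± 7059 in LuM1 and 139098 ± 13910 in NM11 cells. Its log2 ratio was -0.84 against Colon26 and -0.98 against NM11, just short of 2-fold. Against NM11 its dimmer probes were at -1.18 and -1.002, past 2-fold. *Eef1a1*, which delivers aminoacyl-tRNA, read 93741 ± 9374, 72116 ± 7212 and 98683 ± 9868, and was -0.38 against Colon26. *Eef1e1*, a component of the multisynthetase complex, was highest in NM11 cells, with 1810 ± 181 in Colon26, 1521 ± 152 in LuM1 and 3244 ± 324 in NM11 cells, and was 2.13-fold lower in LuM1 than in NM11 cells. Of 9 genes with a known TOP tract, 0 were at least 2-fold apart in any comparison by the probe used. Of all genes, 11.8% were so lower and 13.1% higher in LuM1 over Colon26. Dimmer probes of *Eef2* (against NM11) and of *Eef1g* (-1.001 against Colon26) were past 2-fold. The 9 genes had a median of -0.38 in LuM1 over Colon26, but 0.02 with quantile normalization and 0.07 in the processed values of the series.

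The enzymes that modify elongation factors held 3 genes past 2-fold below Colon26 in LuM1 cells, among 6 measured (against 11.8% of all genes). *Eef2k*, the kinase that inactivates eEF2, read 861 ± 86.3 in Colon26, 424 ± 42.6 in LuM1 and 1260 ± 126 in NM11 cells. It was 2.03-fold below the Colon26 level in LuM1 cells and 2.97-fold lower than in NM11 cells, the largest difference between LuM1 and NM11 among the measured translation factors, and NM11 was higher than Colon26 (log2 ratio 0.55). *Eef1akmt4*, an eEF1A methyltransferase, read 7463 ± 746, 3085 ± 309 and 6528 ± 653 in Colon26, LuM1 and NM11 cells, 2.42-fold lower in LuM1 than in Colon26 and 2.12-fold lower than in NM11. *Eef2kmt*, an eEF2 methyltransferase, had another pattern: it read 1499 ± 150 in Colon26 cells but 631 ± 63.3 in LuM1 and 629 ± 63.1 in NM11 cells, so both sublines were lower than the parent and lay within the scanner error of each other.

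eIF5A is the protein that carries hypusine and helps the ribosome past difficult peptide bonds. Its common gene *Eif5a* read 139567 ± 13957 in Colon26, 99422 ± 9942 in LuM1 and 161137 ± 16114 in NM11 cells, a log2 ratio of LuM1 over Colon26 of -0.49. The paralogue *Eif5a2* read 434 ± 43.8 in Colon26, 132 ± 14.0 in LuM1 and 165 ± 17.0 in NM11 cells, 3.28-fold lower in LuM1 and 2.63-fold lower in NM11 than in Colon26, the largest differences from Colon26 among the measured translation factors. On the Colon26 array its spot lay where 17.9% of the surrounding spots were well above background on that array alone, against 1.89% over the whole array, and no ratio remained once such areas were left out. The bright *Eif5a* spot lay in such an area on the LuM1 array (18.1% against 3.49%), and without these areas its other probe gave a log2 ratio of LuM1 over Colon26 of -0.86.

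*Eif6* and 4 ABC genes together had the lowest group median of LuM1 over Colon26 outside the eIF5A pair, -0.75. With quantile normalization the enzymes that modify elongation factors were lower, at -0.71 against -0.51 for this group. *Abce1*, the ATPase that splits ribosomes after termination, read 12488 ± 1249 in Colon26, 3932 ± 393 in LuM1 and 7237 ± 724 in NM11 cells. It was 3.18-fold below the Colon26 level in LuM1 cells, with NM11 in between, and it stayed at least 2-fold lower under all 13 alternative ways of processing, with log2 ratios between -1.68 and -1.22. *Eif6*, which keeps the large ribosomal subunit from joining the small subunit, read 21648 ± 2165, 11755 ± 1176 and 20246 ± 2025, a ratio of LuM1 over Colon26 of -0.88. *Abcf1*, an ABC protein that binds eIF2, read 12693 ± 1269, 7545 ± 754 and 8029 ± 803, so both sublines were lower than Colon26 (-0.75 and -0.66). *Abcf2* (4194 ± 419, 3039 ± 304 and 3392 ± 339) and *Abcf3* (2277 ± 228, 1843 ± 184 and 2004 ± 200) followed the same order with smaller differences. For *Abcf1*, *Abcf2* and *Abcf3*, LuM1 and NM11 lay within the scanner error of each other. So did NM11 and Colon26 for *Abcf3*, and the order is not resolved there.

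**Figure D3:**
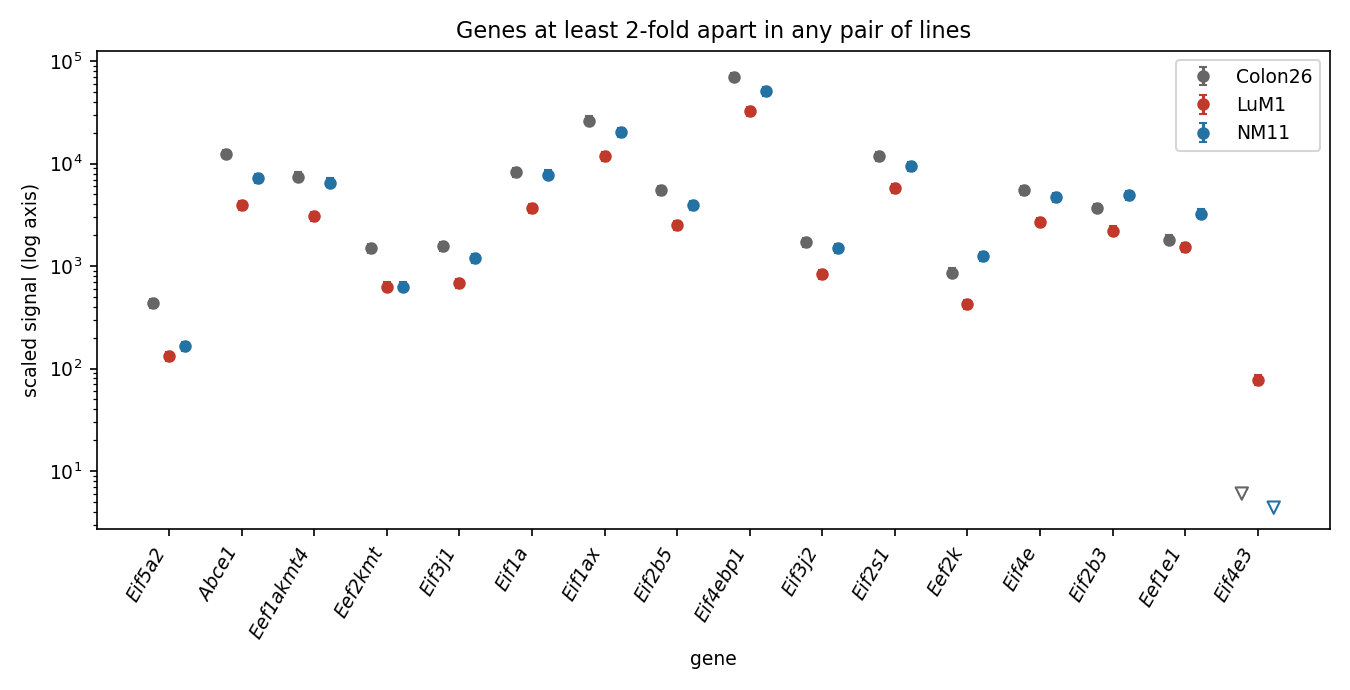
Scaled signal (log axis) of the 16 translation factor genes at least 2-fold apart in any pair of lines, with 1 array per line and bars for the scanner error, which are mostly shorter than the points. Open triangles mark signals not well above background; levels can be read across lines within a gene but not between genes, since each gene has its own probe, and the red LuM1 point is lowest for 14 genes, near NM11 for *Eef2kmt* and highest for *Eif4e3*.

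Promoters of these genes were searched for the E-box letters CACGTG, to which MYC family factors bind, and for TGATGNAA, letters of ATF4 composite sites, on both strands. The E-box reads the same on both strands, and the motifs can share letters where TGATGNAA follows an E-box directly. RefSeq promoters of the mouse build GRCm38.p6, from 250 bases before to 50 after a gene start, were given for 54 of the 70 genes (69 promoters). CACGTG was in 17 of the 69 (24.6%), against 7.15% of all promoters in the table and 9.93% of those of genes measured in LuM1 and Colon26. TGATGNAA was in 2 of the 69 (2.90%), against 3.97% and 2.40%. Among the 13 genes past 2-fold in LuM1 over Colon26, 10 had promoters, and *Eef1akmt4*, *Eef2k*, *Eif4e* and *Eif5a2* held CACGTG. That is 40% of these genes, against 27.8% of the members with promoters and 11.7% of genes measured in LuM1 and Colon26. *Eef2k* had another promoter, at chr7:120850939-120851238, without CACGTG. It held TGATGNAA, as the reverse complement TTTCATCA. Members with the letters had a median log2 ratio of LuM1 over Colon26 of -0.67 (15 genes) and those without of -0.44 (37 genes), with ranges that overlapped widely. A match is a description of the letters only. Shown are the promoters with CACGTG of the 4 genes that combine a ratio past 2-fold with these letters, which are in capitals. All are on the + strand, at chr16:20611351-20611650, chr7:120842581-120842880, chr3:138527018-138527317 and chr3:28781027-28781326.
Eef1akmt4 promoter: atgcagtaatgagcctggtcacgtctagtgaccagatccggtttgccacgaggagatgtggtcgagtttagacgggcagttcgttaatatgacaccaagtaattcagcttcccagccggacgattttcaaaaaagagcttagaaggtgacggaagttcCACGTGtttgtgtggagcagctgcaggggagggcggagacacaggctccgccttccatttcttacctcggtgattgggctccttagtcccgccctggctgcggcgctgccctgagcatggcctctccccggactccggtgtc
Eef2k promoter: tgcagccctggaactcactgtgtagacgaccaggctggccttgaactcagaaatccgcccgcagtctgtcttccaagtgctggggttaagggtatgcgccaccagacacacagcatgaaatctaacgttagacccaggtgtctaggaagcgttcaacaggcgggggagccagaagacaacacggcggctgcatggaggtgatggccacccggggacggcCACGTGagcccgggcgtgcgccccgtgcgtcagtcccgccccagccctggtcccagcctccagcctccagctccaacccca
Eif4e promoter: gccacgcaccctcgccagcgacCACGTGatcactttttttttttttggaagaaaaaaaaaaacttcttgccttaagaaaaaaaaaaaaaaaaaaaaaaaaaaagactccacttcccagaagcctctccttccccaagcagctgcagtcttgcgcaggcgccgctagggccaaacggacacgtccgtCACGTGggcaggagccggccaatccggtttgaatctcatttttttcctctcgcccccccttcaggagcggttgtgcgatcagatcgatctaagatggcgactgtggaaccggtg
Eif5a2 promoter: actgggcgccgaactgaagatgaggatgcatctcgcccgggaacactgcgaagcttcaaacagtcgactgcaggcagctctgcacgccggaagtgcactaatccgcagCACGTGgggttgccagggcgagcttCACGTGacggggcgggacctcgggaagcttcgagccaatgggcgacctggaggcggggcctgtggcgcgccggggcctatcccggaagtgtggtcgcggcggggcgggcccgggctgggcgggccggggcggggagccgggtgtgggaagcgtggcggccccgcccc

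In NM11 cells the translation factors lay near all genes as a list, with single genes on either side. In NM11 over Colon26, 0 of 65 translation factors were at least 2-fold higher (against 8.34% of all genes) and 2, *Eef2kmt* and *Eif5a2*, were at least 2-fold lower (against 7.89%). The median log2 ratio was -0.05 (0.03 without clustered spots), against -0.02 over all genes, with 34 of 65 below that median. More than the scanner error separated 20 genes downward (against 34.9%) and 23 upward (against 30.6%). By role, medians relative to all genes were 0.23 for eIF3, 0.20 for elongation and 0.23 for the TOP genes. They were -0.28 for eIF6 and the ABC genes and -0.19 for the eIF4F and cap-binding group. Without that reference, the eIF3, elongation and TOP medians were above 0 at the 75th percentile and below 0 when scaled to *Hprt* or to the spike-in controls.

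LuM1 over NM11 shares the LuM1 array with LuM1 over Colon26 and is no independent comparison. Of 66 genes with a ratio, 5 were at least 2-fold lower in LuM1, *Eef1akmt4*, *Eef2k*, *Eif1a*, *Eef1e1* and *Eif2b3* (against 8.50% of all genes), and 1 was higher, *Eif4e3* (against 11.1%). The median was -0.56 (0.03 when scaled to *Hprt*), against -0.11 over all genes, and 57 of 65 genes lay below the latter. The difference exceeded the scanner error downward in 52 genes (80.0%, against 42.0%) and upward in 1, *Eif2b4* (against 30.7%). Relative to the running median of genes of like signal the median was -0.26, with 51 genes below. The group of eIF6 and the ABC genes differed least, with a median of -0.16 that was above 0 under 5 of the 13 alternatives.

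Set against both other lines at once, LuM1 had the lowest signal for 58 of the 65 genes measured in all 3 lines, against 45.7% of all such genes. The exceptions were *Eef2kmt*, *Eif1b*, *Eif2a*, *Eif2b4*, *Eif3h*, *Eif4g3* and *Eif5b*. This ranking takes no account of the scanner error and holds for the reported scaling. It depends on the factor of each array, and scaling to *Hprt* put the median of LuM1 over NM11 at 0.03. At least 2-fold lower than both were *Eef1akmt4*, *Eef2k* and *Eif1a* (3 of 66, against 4.34% of all genes), and at least 2-fold higher than both was *Eif4e3* (against 7.89%). The share at least 2-fold lower than both was thus near that over all genes. Lower than Colon26 in LuM1 cells and higher in NM11 cells, by more than the scanner error each way, were 16 of the 65 genes (24.6%, against 6.56% of all such genes), and 0 showed the opposite order (against 4.92%). These counts of opposite sides moved with the scaling, and between 2 and 16 of the 16 genes were on these opposite sides under the 13 alternatives. None of the shares over all genes given here was matched for signal strength, with which the ratios of LuM1 over Colon26 moved.

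Several probes of a gene share the labelled RNA of an array, so they check the probe and not the cells. In 25 genes with several measured probes, the log2 ratios of LuM1 over Colon26 spanned a median of 0.08, and 1 gene, *Eif2s3x*, had probes of opposite sign, both near 0. The measured probes of *Eef2k* ranged from -1.39 to -1.02, those of *Eef2kmt* from -1.28 to -1.25 and those of *Abcf1* from -0.87 to -0.53. The exception was *Eif4enif1*, the eIF4E transporter, with -0.21 for its bright probe and -1.84 for a dim one designed on another transcript. The median span was 0.16 in NM11 over Colon26, where 4 genes had probes of opposite sign. In LuM1 over NM11 it was 0.16 with 3 such genes, and *Eif5a* ranged from -1.29 to -0.70. For 6 of the probes, printed 10 times each, the spots within an array varied by an SD of 0.03 to 0.09 on the log2 scale.

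**Figure D4:**
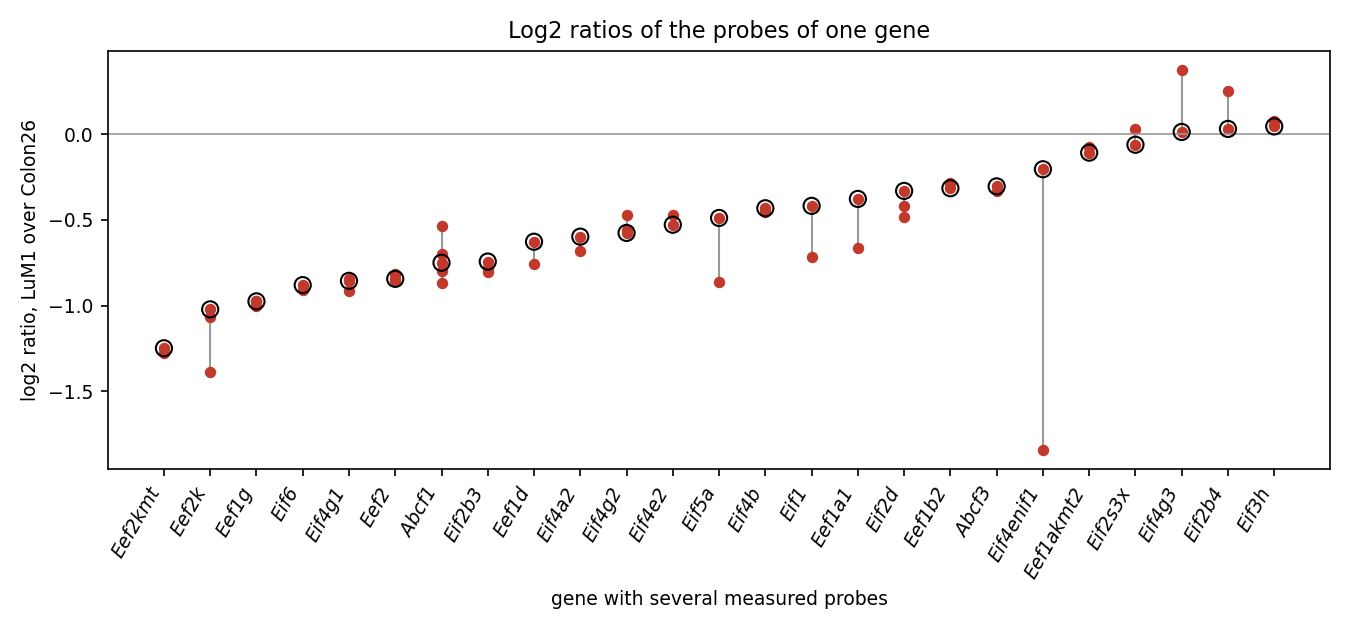
Log2 ratios of LuM1 over Colon26 for every measured probe of the 25 translation factor genes with several measured probes, ordered by the probe used (ringed). Vertical lines join the probes of a gene; most lie close together, and *Eif4enif1* has the widest span, 1.64.

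The 37 other genes of the pathway had a median of -0.28 in LuM1 over Colon26 (0.16 in the processed values of the series), nearer to that of all genes, and 6 were at least 2-fold lower (16.2%, against 11.8% of all genes) and 0 higher (against 13.1%). The share lower was thus near that over all genes. *Ppp1r15a*, which directs the phosphatase that reverses eIF2 alpha phosphorylation, read 26791 ± 2679 in Colon26, 6912 ± 691 in LuM1 and 27444 ± 2744 in NM11 cells, 3.88-fold and 3.97-fold lower in LuM1. *Pabpc4*, a poly(A)-binding protein, read 7539 ± 754, 2859 ± 286 and 8028 ± 803, with a log2 ratio of LuM1 over Colon26 of -1.40. The termination factor genes *Etf1* and *Gspt1*, the partners of *Abce1* in ending translation, were at -1.34 and -1.46 against Colon26 and also lower in NM11 cells (-0.77 and -0.70). *Tsfm*, a mitochondrial elongation factor, was at -1.28 and *Hbs1l*, a ribosome rescue factor, at -1.04. The eIF2 alpha kinases differed otherwise: *Eif2ak3* was 0.63, *Eif2ak1* 0.52, *Eif2ak2* 0.19 and *Eif2ak4* -0.31 in log2 ratio of LuM1 over Colon26. *Pdcd4*, an inhibitor of the eIF4A helicase, was 0.45. In NM11 over Colon26, 0 of the 37 were 2-fold apart in either direction, and in LuM1 over NM11 *Ppp1r15a*, *Pabpc4* and *Tsfm* were at least 2-fold lower.

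How large the shift appeared depended on how the arrays were scaled, since a factor per array moves every gene alike. In LuM1 over Colon26 the median of the translation factors was below 0 under all 13 alternatives, from -0.52 to -0.04, and its difference from the median of all genes lay between -0.39 and -0.13. The processed values of the series, which multiply each array by 1 factor, raised the median of all genes by 0.45 and left 2 genes at least 2-fold lower, *Abce1* and *Eif5a2*. In LuM1 over NM11, scaling to *Hprt* raised the median of all genes by 0.59 and put that of the translation factors at 0.03, a difference of -0.45 from all genes.

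**Figure D5:**
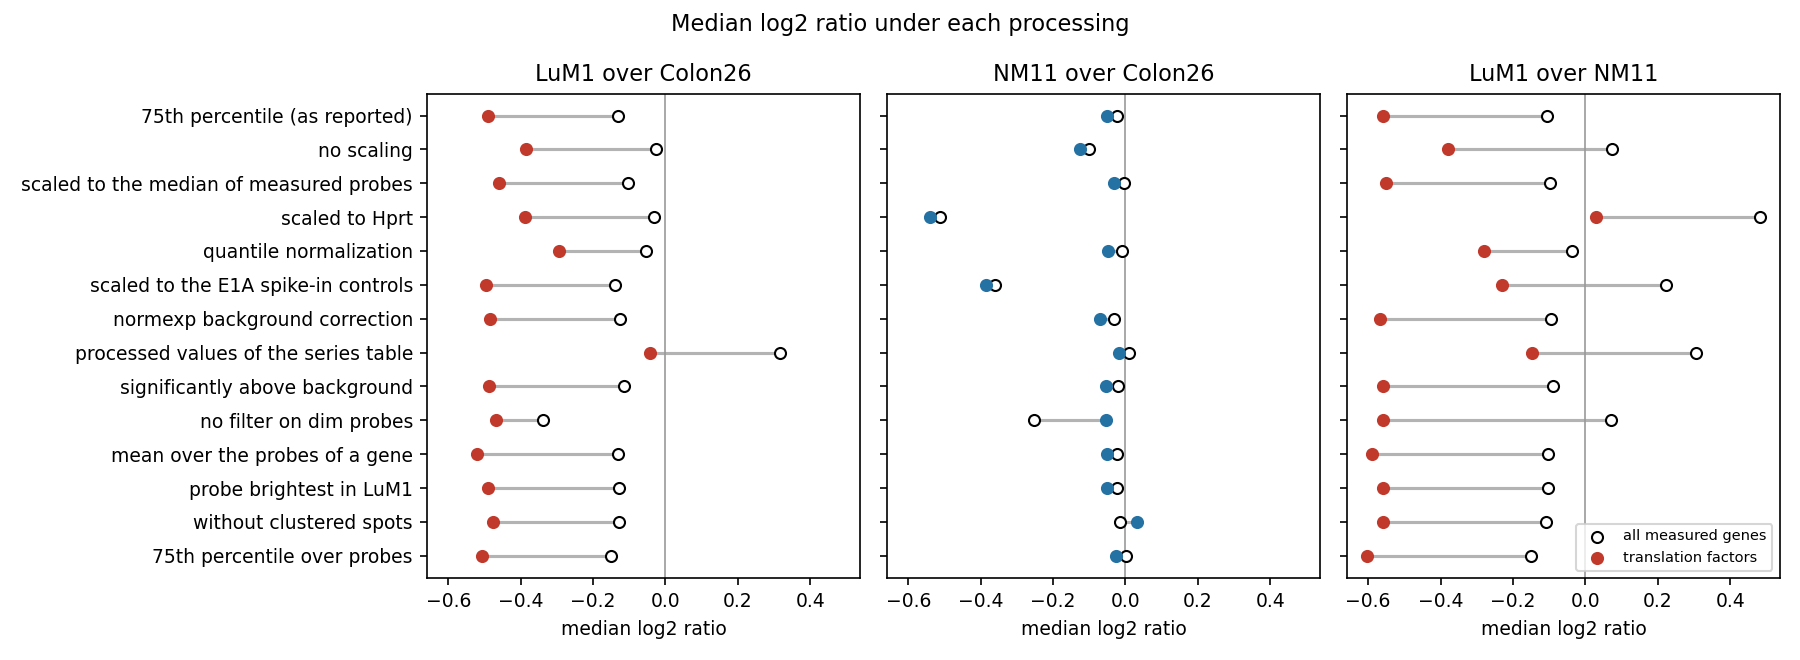
Median log2 ratio of the translation factors (filled) and of all measured genes (open) under the reported scaling and 13 alternatives, in each comparison. The filled points lie left of the open ones in every row of both panels that contain LuM1, although both shift together with the scaling; in NM11 over Colon26 they nearly coincide, except without a filter on dim probes.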

How the data were processed

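Total RNA of cultured Colon26, LuM1 and NM11 cells was read on 1 single-colour array per line. Per the file headers, the intensity values the authors deposited came from Agilent Feature Extraction 11.5.1.1, with the background subtracted and no scaling between arrays. The deposited flags mark outliers and spots well above background as a score of 0 or 1. The deposited series values are the same intensity times a factor (Colon26 0.654, LuM1 0.829, NM11 0.706). The array was designed on an older build, so no probe coordinates are given.

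Control and outlier spots (74 to 137 per array) were left out, and repeated spots were averaged. The 75th percentile of the arrays (581.1, 625.1 and 551.5 for Colon26, LuM1 and NM11) was brought to 585.1. Probes were named through RefSeq accessions (58.3% matched), and the brightest probe stood for its gene. Where 1 side was not well above background, the log2 ratio was a bound against the lowest signal well above background on that array. The scanner error of a log2 ratio was 0.20 for most genes. No test was run, because each line has 1 array.

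The members and lists were chosen with earlier results of these data known. Named were all members at least 2-fold apart in any comparison, 22 members fixed by role, and other pathway genes at least 2-fold apart in LuM1 over Colon26. A few further members and pathway genes (such as *Eif2s2*, *Eif2b4*, *Eif3h*, *Eif4g3*, *Eif4enif1* and the kinases) were named after their values were seen. The ratio computation was tested on simulated data. Alternatives covered scaling, background correction, detection, the choice of probe, areas of clustered spots and the threshold. Tools were R 4.3.3 with limma 3.58.1 (normexp), and Python 3.11.15 with pandas 2.3.3, numpy 2.4.6, matplotlib 3.10.9 and scipy 1.17.1.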

Additional observations from a re-analysis of the deposited data

Results flagged for a closer look

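For 16 translation factors the sublines lay on opposite sides of Colon26, lower in LuM1 cells and higher in NM11 cells, by more than the scanner error each way. They made up 24.6% of the 65 measured in all lines, against 6.56% of all such genes, and 0 showed the opposite order (against 4.92%). These shares over all genes were not matched for signal strength. In the brightest group, which held 44 of the 65, the medians of all genes were -0.30 in LuM1 over Colon26 and 0.01 in NM11 over Colon26. The values below are log2 differences between the ratio of LuM1 over Colon26 and that of NM11 over Colon26. With 1 array per line, these differences were not tested.

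*Eef2k*, the eEF2 kinase, had the largest difference (-1.57). Of the elongation group the list held *Eef1e1* (-1.09), *Eef1d* (-0.85) and *Eef1b2* (-0.56), together with the eEF1A methyltransferase *Eef1aknmt* (-0.69) and *Eif5a* (-0.70). Of the genes named as initiation factors it held the eIF2B genes *Eif2b3* (-1.16) and *Eif2b1* (-0.83) and the eIF4E transporter *Eif4enif1* (-0.67). It also held the eIF3 genes *Eif3c* (-0.87), *Eif3g* (-0.78), *Eif3d* (-0.62) and *Eif3e* (-0.54). The helicase genes in it were *Eif4a1* (-0.57), *Eif4a3* (-0.78) and *Eif4a3l1* (-0.76). *Eif4a3* and *Eif4a3l1* are copies of nearly the same sequence and may be 1 signal. *Eif4a3l1* gave no ratio of either subline over Colon26 once clustered spots were left out. The dim probe of *Eif4enif1* was lower than Colon26 in both sublines (-1.84 in LuM1 and -0.54 in NM11). The signs depend on scaling. In the processed values of the series, which raise every ratio of LuM1 over Colon26 by 0.45, 7 of the 16 were still on opposite sides, and *Eif2b1*, *Eif3c*, *Eif3d*, *Eif3e*, *Eif4a1*, *Eif4enif1*, *Eef1b2*, *Eef1e1* and *Eef1aknmt* were above Colon26 in LuM1 cells too. With quantile normalization 10 were still on opposite sides, when scaled to *Hprt* 2 and when scaled to the spike-in controls 6. In both latter settings the NM11 ratios turned, as the median of all genes in NM11 over Colon26 moved by -0.49 when scaled to *Hprt* and by -0.34 when scaled to the spike-in controls.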

How the results depend on the processing

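No paired analysis was possible because each line has 1 array. In LuM1 over Colon26, members at least 2-fold lower numbered 13 as reported, 6 with quantile normalization, 2 in the processed values of the series and 9 to 14 under the other scalings, corrections and probe choices. The median was -0.043 in the series values. Members above the median of all genes numbered 9, but 18 with quantile normalization and 23 without a filter on dim probes. *Eif4e3* was the member at least 2-fold higher, and the count was 0 with normexp, in LuM1 over NM11 too. At a 4-fold threshold all of these counts were 0, but a 4-fold difference of *Eif4e3* is possible, since its values are lower bounds. Without a filter on dim probes its log2 ratios of LuM1 were 3.69 over Colon26 and 4.15 over NM11.

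In NM11 over Colon26, members at least 2-fold lower numbered 4 when scaled to *Hprt* and 1 without clustered spots, and 1 was higher with the looser detection rule or no filter. The median was -0.54 with *Hprt* and -0.39 with the spike-in controls, and 49 members lay above the median of all genes without a filter. In LuM1 over NM11, members at least 2-fold lower numbered 0 with *Hprt* and 1 with no scaling, quantile normalization, the spike-in controls or the series values. The median was 0.029 with *Hprt*, -0.28 with quantile normalization, -0.23 with the spike-in controls and -0.15 in the series values. Members above the median of all genes numbered 14 with quantile normalization and 5 without a filter.

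No named member changed sign in the comparison in which it was past 2-fold; other ratios of these genes did, such as that of *Eef1e1* in LuM1 over Colon26, from -0.27 to 0.20. Without clustered spots 59 genes kept a ratio of LuM1 over Colon26, in place of 66. *Eif1b*, *Eif3j2*, *Eif4a3l1*, *Eif4e*, *Eif4ebp2*, *Eif4h* and *Eif5a2* gave none, and *Abcf2* gave none of NM11. The 75th percentile over probes and the running median were chosen after seeing the data. The cause of these shifts was not tested beyond the factor that each scaling applies to a whole array. With 1 array per line, the spread between cultures is unknown, and dim probes give bounds only.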
